A study of Rattus norvegicus with 12 samples.

Results

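The major histocompatibility complex of the rat, named RT1, was examined gene by gene in the periaqueductal grey, a midbrain region of pain control. The 36 member genes were the 31 whose symbol begins with RT1-, their partners B2m, Cd74 and Ciita, and 2 unnamed gene models inside the complex, AABR07044362.4 and AABR07044389.1. They were taken from 41596 genes in all. The RT1- genes and partners were chosen by name. The 2 unnamed models were chosen because their levels had already been seen to differ between animals, so their values are given as a description, with no test.

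PolyA RNA had been sequenced from the periaqueductal grey of 12 male Sprague Dawley rats, 1 library per rat. In the saline-sired group, 6 rats had sires given saline, and in the morphine-sired group 6 rats had sires given morphine. The libraries are called saline-sired 1 to 6 and morphine-sired 1 to 6 in order of accession. All groups share strain, sex and tissue, no age or genotype is given in the sources used here, and the labels name no sire or litter. The rats do carry animal numbers, and 6 pairs of numbers are adjacent: 358 and 359 (saline-sired 1 and 2), 276 and 277 (morphine-sired 1 and 2), 372 and 373 (saline-sired 3 and morphine-sired 4), 297 and 298 (morphine-sired 3 and saline-sired 4), 312 and 313 (saline-sired 5 and 6), and 383 and 384 (morphine-sired 5 and 6).

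Class I molecules are made of a heavy chain from the RT1-A, RT1-C/E or RT1-M, N, S and T genes and of the light chain encoded by B2m. They show peptides from inside the cell to CD8 T cells, and interferons raise their synthesis. Class II molecules pair an alpha and a beta chain, are guided by the invariant chain Cd74, receive their peptide with the help of RT1-DM, are restrained by RT1-DO, and are switched on by the regulator Ciita. In the resting brain class II is low and is found mostly on microglia and on cells of the borders and vessels. The heavy chains are among the most variable genes of the genome between strains and outbred animals. Sprague Dawley is an outbred stock, whereas the reference genome Rnor_6.0 comes from the inbred Brown Norway strain. A gene that an animal lacks therefore cannot be told apart here from an allele whose reads do not align to the reference. The class I genes are near-identical copies between which reads can be split, so the level of each single RT1-A, C/E, S, T or N gene is uncertain.

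Class I and class II promoters are known for short control elements, and 4 promoters are printed because the levels of these genes carry the results. Of the 36 members, 29 had an entry in the RefSeq promoter table, whose build GRCr8 gives the coordinates of the sequences. In the 250 bases before the start, in capitals on either strand, stand GGGATTCCC (a kB element), TTTCACTTC (an interferon element), CTGATTGG (the Y box core) and TAGCAAC (an X box core). No capitals of these motifs overlap in the sequences shown. RT1-A2 (chr20:4872621-4872870, plus strand) encodes a classical class I heavy chain. RT1-S3 (chr20:2675278-2675527, plus strand) encodes a nonclassical class I chain. RT1-Da (chr20:4515165-4515414, plus strand) encodes the class II D alpha chain, and Cd74 (chr18:56526956-56527205, plus strand) the invariant chain.
RT1-A2: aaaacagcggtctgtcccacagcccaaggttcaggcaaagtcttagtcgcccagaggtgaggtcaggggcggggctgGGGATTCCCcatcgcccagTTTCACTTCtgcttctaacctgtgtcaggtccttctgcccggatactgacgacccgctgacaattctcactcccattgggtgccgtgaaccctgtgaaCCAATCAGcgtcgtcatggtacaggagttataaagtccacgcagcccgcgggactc
RT1-S3: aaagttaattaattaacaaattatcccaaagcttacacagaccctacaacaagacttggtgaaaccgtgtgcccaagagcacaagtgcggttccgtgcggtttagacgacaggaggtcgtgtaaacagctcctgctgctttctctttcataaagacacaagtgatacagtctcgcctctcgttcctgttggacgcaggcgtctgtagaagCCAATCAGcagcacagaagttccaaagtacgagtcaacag
RT1-Da: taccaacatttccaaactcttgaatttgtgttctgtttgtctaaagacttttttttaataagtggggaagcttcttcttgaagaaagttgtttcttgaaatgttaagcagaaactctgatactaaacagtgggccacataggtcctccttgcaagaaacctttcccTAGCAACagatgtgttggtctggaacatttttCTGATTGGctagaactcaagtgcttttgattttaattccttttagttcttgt
Cd74: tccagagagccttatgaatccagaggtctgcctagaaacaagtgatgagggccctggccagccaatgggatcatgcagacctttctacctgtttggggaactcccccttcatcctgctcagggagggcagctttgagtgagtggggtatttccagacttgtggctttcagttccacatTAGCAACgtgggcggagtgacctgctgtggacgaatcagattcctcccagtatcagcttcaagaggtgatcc
The interferon element was found in the promoters of RT1-A1, RT1-A2, RT1-CE10, RT1-CE3 and RT1-CE5, 5 of the 29, and in 0.382% of 33469 promoters. The kB element was found in RT1-A1, RT1-A2, RT1-CE10 and RT1-CE4, 4 of the 29, against 0.272% of all. The Y box core was found in 11 of the 29, against 3.19% of all, among them RT1-Da, RT1-Db1, RT1-Ba and RT1-Bb. The X box core was found in Cd74, RT1-Da, RT1-Db1 and RT1-DOb, 4 of the 29, against 2.88% of all. These are matches of letters in a reference sequence, not measured binding.

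Levels are in TPM, the abundance of a transcript scaled by its length and by the size of the library, summed over the transcripts of a gene. A gene was tested when its mean over the 12 libraries was at least 0.5 TPM, which 27 of the 36 members passed. The remaining 9 were Ciita, RT1-CE1, RT1-Db2, RT1-DOa, RT1-Ha, RT1-M2, RT1-M4, RT1-M5 and RT1-M6-2, and none of them exceeded 1.43 TPM in any library. RT1-M4 and RT1-Ha were listed at 0 in all 12 libraries. A listed 0 can be a failed estimate: Cldn5, an endothelial tight junction gene, was listed at 0 in 8 of the 12 libraries. The libraries rest on 4.39 to 6.03 gigabases of aligned sequence, so that 1 TPM is a read depth of 1.86 to 2.64 per base. Among marker lists, summed choroid plexus markers stood apart at 447 TPM in saline-sired 2 and 1802 TPM in morphine-sired 2, against at most 78.1 TPM in the other 10 libraries, and the counts by sire, the counts of steps and the correlations were repeated without these 2. Being bulk tissue, the libraries cannot tell fewer cells of a type apart from less RNA per cell.

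**Figure D1:**
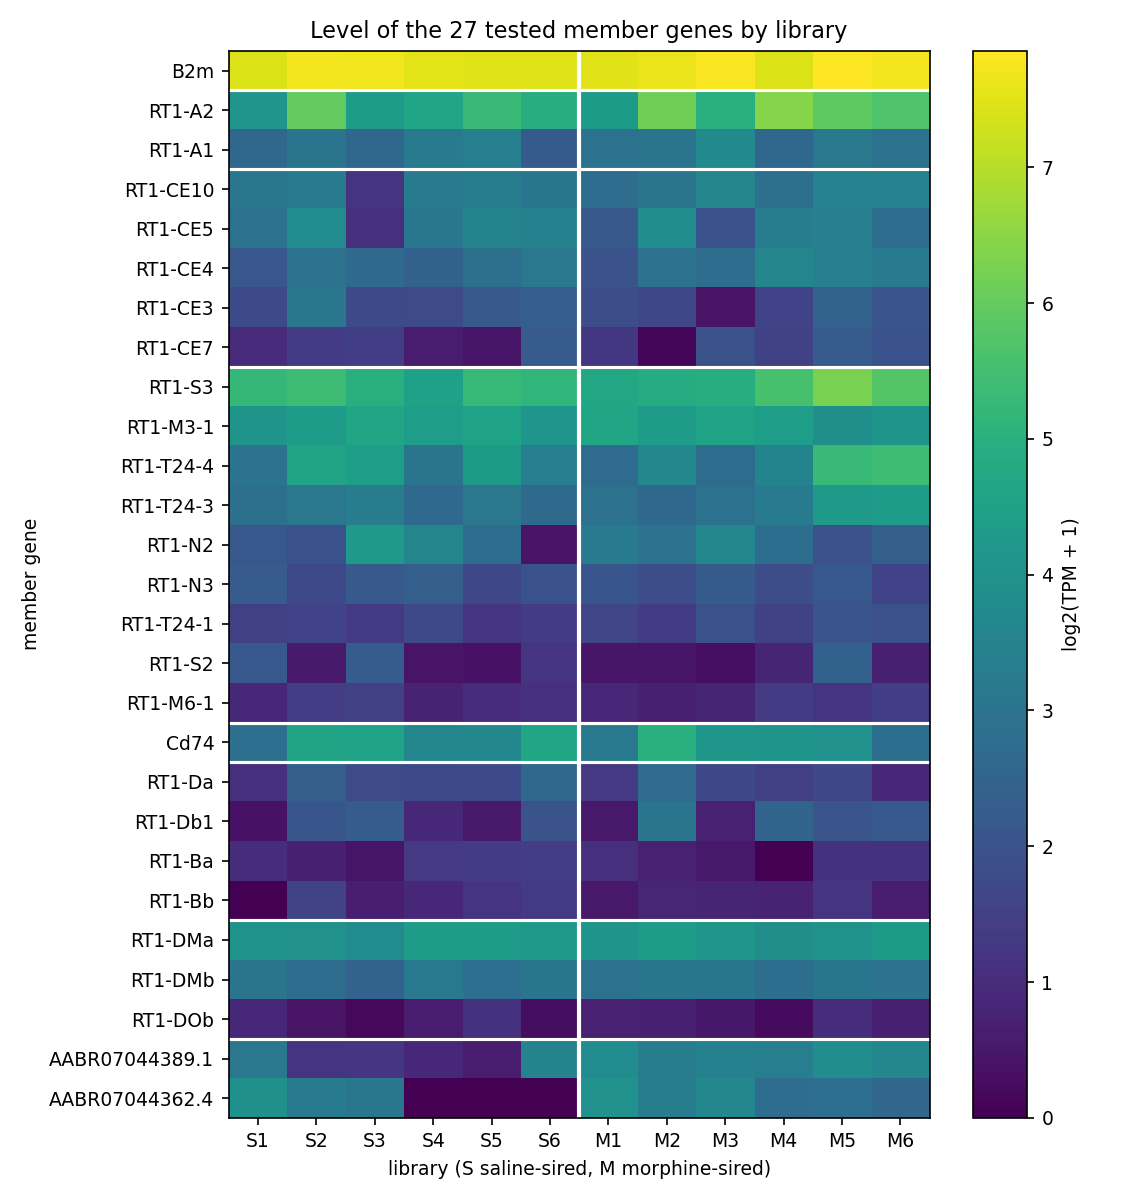
Heat map of log2(TPM + 1) for the 27 tested members (rows, grouped by class) in the 12 libraries (columns, S saline-sired, M morphine-sired, with the same numbers as in the text). B2m is bright and even, the 2 unnamed models in the bottom rows are dark in some saline-sired libraries, and RT1-CE10 and RT1-CE5 are darkest in saline-sired 3.

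B2m, the class I light chain, was the most abundant member and one of the steadiest. Its level in saline-sired 1 to 6 was 175, 211, 204, 186, 179 and 178 TPM. In morphine-sired 1 to 6 it was 180, 197, 222, 172, 231 and 209 TPM. The highest library was 1.35 times the lowest, and the groups overlapped throughout.

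RT1-A2 had the highest mean of the heavy chains, 41.9 TPM. It was at 16.2, 62.1, 18.8, 24.1, 39.4 and 28.5 TPM in saline-sired 1 to 6, and at 18.5, 70.8, 30.0, 84.9, 59.1 and 50.4 TPM in morphine-sired 1 to 6. Both groups spanned most of the 5.25-fold range, with saline-sired 1 and morphine-sired 1 low and saline-sired 2 and morphine-sired 2 and 4 high. RT1-A1, its neighbour and near copy, was lower and ranged from 3.72 TPM in saline-sired 6 to 12.3 TPM in morphine-sired 3.

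RT1-CE10 and RT1-CE5 belong to the C/E group of class I genes. RT1-CE10 was at 7.58, 8.74, 1.27, 8.40, 9.11 and 7.39 TPM in saline-sired 1 to 6. In morphine-sired 1 to 6 it was at 5.99, 7.13, 10.9, 6.44, 10.1 and 10.2 TPM. Only saline-sired 3 was low, at 1.27 TPM against at least 5.99 TPM in the other 11 libraries. Assembled transcripts hold 86.7% of this level. RT1-CE5 was at 6.74, 12.9, 1.12, 7.48, 10.4 and 9.87 TPM in saline-sired 1 to 6, and at 3.54, 13.5, 2.98, 8.89, 9.62 and 5.79 TPM in morphine-sired 1 to 6. It was low in saline-sired 3 and in morphine-sired 1 and 3. An assembled transcript of the same locus, MSTRG.14604.16, was high in those same 3 libraries, at 17.4, 8.99 and 16.0 TPM, and in saline-sired 4 at 5.80 TPM, and was at most 0.233 TPM elsewhere. RT1-CE3, RT1-CE4 and RT1-CE7 share that locus, and their means lay between 1.82 and 6.53 TPM. RT1-CE3 was at 0.340 TPM in morphine-sired 3 and at 7.58 TPM in saline-sired 2, a 22.3-fold range.

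Of the nonclassical genes, RT1-S3 was at 36.8, 40.6, 29.4, 21.8, 37.6 and 34.8 TPM in saline-sired 1 to 6. In morphine-sired 1 to 6 it was at 24.4, 28.3, 28.8, 47.0, 75.8 and 53.1 TPM. RT1-T24-4 was at 6.94, 22.9, 20.4, 7.10, 18.5 and 9.23 TPM in saline-sired 1 to 6, and at 5.76, 11.8, 5.88, 10.7, 38.5 and 42.2 TPM in morphine-sired 1 to 6. RT1-T24-3 was at 6.53, 7.75, 9.12, 5.46, 7.67 and 5.56 TPM in saline-sired 1 to 6, and at 6.61, 5.31, 6.64, 8.36, 18.1 and 19.5 TPM in morphine-sired 1 to 6. The 3 genes lie within the same stretch of chromosome 20 and were highest in morphine-sired 5 and 6, the rats numbered 383 and 384. Because these 2 libraries stood apart, no correlation between the 3 genes is given. Morphine-sired 5 or 6 was the highest library for 7 of the 27 tested members, against 15.7% of all tested genes. These 7 include the unnamed model AABR07044389.1, which was chosen for its values. Morphine-sired 5 or 6 was also the highest for 5 of 14 genes of class I peptide processing and for 3 of 13 genes of interferon signalling. Psmb9, an immunoproteasome subunit, was at 9.56 TPM in morphine-sired 5 and at 3.99 to 7.80 TPM in the other 11.

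RT1-M3-1, which presents formylated peptides, was steady. In saline-sired 1 to 6 it was at 15.9, 18.8, 24.4, 20.1, 22.3 and 16.5 TPM, and in morphine-sired 1 to 6 at 24.1, 18.8, 22.2, 19.6, 14.0 and 15.8 TPM, a 1.74-fold range. RT1-N2, another nonclassical gene, was at 3.53, 2.97, 17.8, 11.0, 5.83 and 0.340 TPM in saline-sired 1 to 6, and at 8.67, 6.57, 11.7, 6.13, 2.90 and 4.18 TPM in morphine-sired 1 to 6. Its 52.4-fold range lay within the saline-sired group, from saline-sired 6 to saline-sired 3, and 70.7% of its level came from assembled transcripts. RT1-N3, RT1-T24-1, RT1-S2 and RT1-M6-1 had means of 1.16 to 3.07 TPM.

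**Figure D2:**
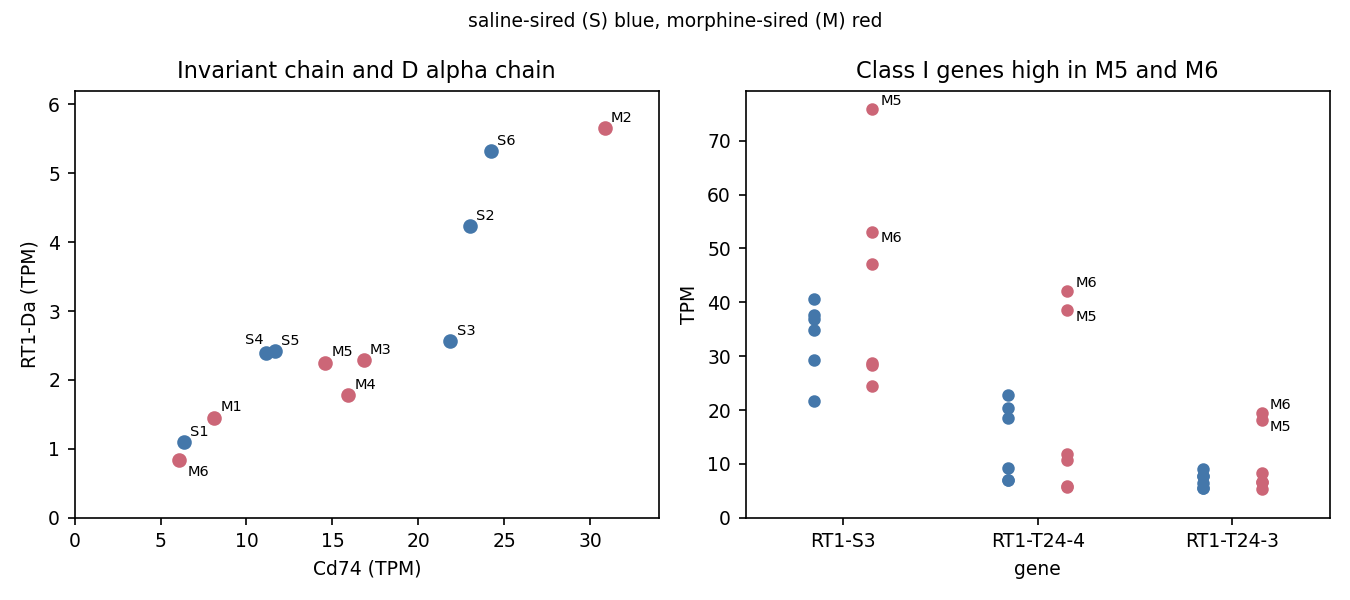
Left, RT1-Da against Cd74 in TPM, 1 point per library. Right, TPM of RT1-S3, RT1-T24-4 and RT1-T24-3, 1 point per library; saline-sired blue, morphine-sired red. On the left the points climb from 6.10 TPM of Cd74 in morphine-sired 6 to 30.8 TPM in morphine-sired 2, and on the right morphine-sired 5 and 6 lie above all other libraries.

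The peptide-binding class II chains had means of 0.905 to 2.69 TPM, below the means of Cd74 (15.9 TPM) and RT1-DMa (16.5 TPM), and class II genes did not vary as 1 group. Cd74, the invariant chain, was at 6.37, 23.0, 21.9, 11.1, 11.6 and 24.2 TPM in saline-sired 1 to 6. In morphine-sired 1 to 6 it was at 8.12, 30.8, 16.8, 15.9, 14.6 and 6.10 TPM. The lowest and the highest library were both morphine-sired, and the groups overlapped. Ciita, the regulator of class II, was at most 0.117 TPM in saline-sired 5 and was listed at 0 in 5 libraries. In saline-sired 1 to 6 its values were 0, 0.0442, 0.0400, 0.0579, 0.117 and 0 TPM, and in morphine-sired 1 to 6 they were 0.0399, 0, 0, 0, 0.0235 and 0.0418 TPM. It was too low for any comparison at this depth.

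RT1-Da varied with Cd74 over the libraries. It was at 1.1, 4.23, 2.57, 2.40, 2.42 and 5.32 TPM in saline-sired 1 to 6, and at 1.45, 5.66, 2.29, 1.78, 2.25 and 0.843 TPM in morphine-sired 1 to 6. On the log2(TPM + 1) scale over the 12 libraries, Pearson's r was 0.91 (permutation p = 6e-05, adjusted 0.0012) and Spearman's rho was 0.89 (permutation p = 0.00031, adjusted 0.0062), two-sided and adjusted over the 20 relations computed. Without the 2 libraries farthest from the median of Cd74, saline-sired 1 and morphine-sired 6, r was 0.84, and without saline-sired 2 and morphine-sired 2 it was 0.86. Within the saline-sired and the morphine-sired libraries r was 0.89 and 0.94. This pair was chosen after its values had been seen.

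None of the other 7 members set against Cd74 gave an adjusted permutation p under 0.05. RT1-Db1, the D beta chain, had r = 0.62 (adjusted permutation p = 0.13), RT1-Bb had r = 0.60 (adjusted permutation p = 0.13), and RT1-Ba had r = -0.37 (adjusted permutation p = 0.35). RT1-DMa had r = -0.12 (adjusted permutation p = 0.71). None of the 10 summed marker lists gave an adjusted permutation p under 0.05 with Cd74, and r for microglia was -0.20 (adjusted permutation p = 0.56). In the list fixed for B cells, Pax5 made up most of the sum and was the only 1 of the 4 genes found to pass the filter. Ms4a1, the gene for CD20, was at no more than 0.05 TPM in every library. Pax5 was at 13.9, 9.30 and 4.49 TPM in saline-sired 2, morphine-sired 2 and saline-sired 3. Tph2, the serotonin-making enzyme of raphe neurons, was highest in the same 3 libraries, at 445, 195 and 196 TPM. Which cells the Pax5 RNA came from was not tested. The r of this list with Cd74 was 0.67 (adjusted permutation p = 0.084).

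RT1-DMa and RT1-DMb, the 2 chains of the peptide exchange factor, were among the steadiest members. RT1-DMa was at 15.3, 14.8, 12.7, 18.7, 19 and 18.0 TPM in saline-sired 1 to 6, and at 15.8, 19, 17.0, 13.7, 15.2 and 18.4 TPM in morphine-sired 1 to 6, a 1.5-fold range. Its mean, 16.5 TPM, was above the mean of 2.69 TPM of RT1-Da and of 2.62 TPM of RT1-Db1. RT1-DMb ranged from 4.54 to 8.03 TPM. The class II B chains were lower: RT1-Ba, the alpha chain, ran from a listed 0 in morphine-sired 4 to 1.69 TPM, and RT1-Bb, the beta chain, from a listed 0 in saline-sired 1 to 2.03 TPM. RT1-DOb, a chain of the DM inhibitor, ran from 0.113 to 1.19 TPM. Over the 12 libraries, r between summed microglia markers and RT1-DMb was 0.76 (adjusted permutation p = 0.034), but rho was 0.55 (adjusted permutation p = 0.19) and r was 0.32 without saline-sired 2 and 3. Within each group of 6 libraries r was 0.85. For RT1-DMa r was 0.73 (adjusted permutation p = 0.052). Summed microglia markers were at 332 to 404 TPM in saline-sired and 363 to 438 TPM in morphine-sired libraries.

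The 2 unnamed models were the members whose levels looked present in some animals and absent in others. AABR07044362.4 (Rnor_6.0, chr20:3170034-3199279, minus strand, 2 exons) was at 14.5, 8.69, 7.5, 0.00528, 0.00868 and 0.0144 TPM in saline-sired 1 to 6. In morphine-sired 1 to 6 it was at 14.6, 9.13, 11.7, 5.93, 6.37 and 5.07 TPM. Saline-sired 4, 5 and 6 thus lay near 0 and the other 9 libraries at 5.07 TPM or more. AABR07044389.1 (chr20:4510034-4517128, minus strand, 4 exons) was at 7.68, 1.3, 1.36, 0.832, 0.540 and 10.5 TPM in saline-sired 1 to 6, and at 13.2, 8.89, 9.91, 9.39, 13.3 and 11.4 TPM in morphine-sired 1 to 6. Saline-sired 2 to 5 were low and the other 8 libraries were at 7.68 TPM or more.

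The transcript models that overlap these 2 were looked at next. Of the 1866 exonic bases of AABR07044362.4, 1826 form 1 exon, and 4 assembled transcripts of the locus share 95.7% to 97.9% of its bases. In each of the 3 low libraries another of these was at its highest: MSTRG.14502.22 was at 15.3 TPM in saline-sired 4, MSTRG.14502.18 at 7.76 TPM in saline-sired 5, and MSTRG.14502.21 at 6.99 TPM in saline-sired 6. The sum of the 5 models was at 15.0, 9.85, 16.4, 15.5, 7.77 and 7.01 TPM in saline-sired 1 to 6, and at 16.8, 13, 17.3, 11.4, 11.5 and 10.9 TPM in morphine-sired 1 to 6. It was present in all 12 libraries, over a 2.48-fold range. Of the 3 low libraries, saline-sired 5 and 6 had the lowest sums of all, at 7.77 and 7.01 TPM, and saline-sired 4 was at 15.5 TPM. AABR07044389.1 is contained whole in MSTRG.14566.2, which was at 13.5 to 15.6 TPM in the 4 low libraries. The sum of these 2 was 14.7 to 25.0 TPM over the 12 libraries, a 1.70-fold range. The sum was lowest in the 4 low libraries, at 14.7 to 16.4 TPM against 18.2 to 25.0 TPM in the other 8. The highest levels of MSTRG.14566.2 were 15.6, 15.5 and 14.9 TPM, in the low libraries saline-sired 4, 5 and 3. Saline-sired 2 had 13.5 TPM of it, below saline-sired 6 and morphine-sired 4. Each of these 2 had 14.5 TPM of it, beside 10.5 and 9.39 TPM of the annotated model. For both models, reads over the shared exons were counted in every library.

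**Figure D3:**
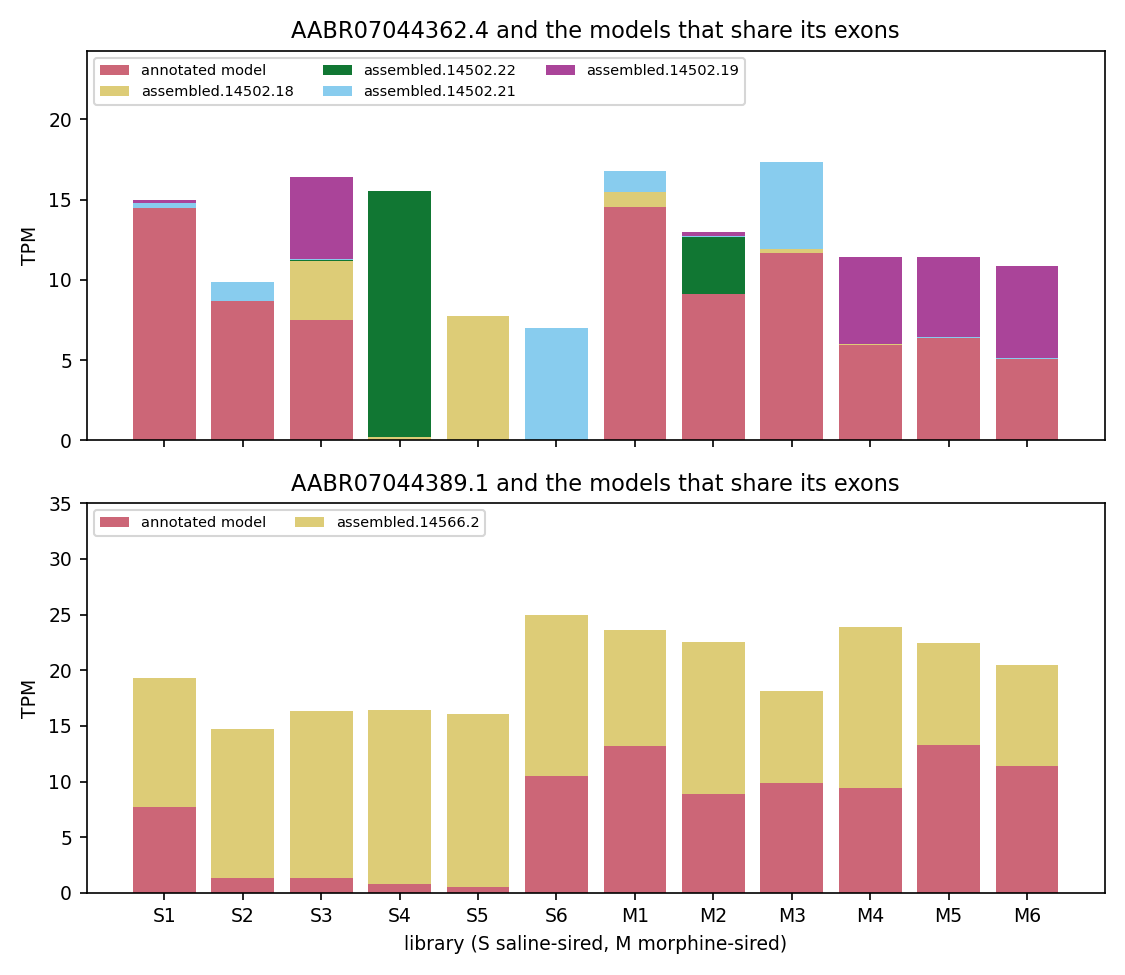
Stacked bars of TPM in the 12 libraries (S saline-sired, M morphine-sired) for AABR07044362.4 (top) and AABR07044389.1 (bottom), each with the assembled models that share at least 50% of its exonic bases. The red part, the annotated model, is missing in saline-sired 4, 5 and 6 (top), where other colours make up the bar, and thin in saline-sired 2 to 5 (bottom), where the whole bar is also lower, at 14.7 to 16.4 TPM.

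A wide step was counted when, with the 12 values of log2(TPM + 1) in order, some neighbours lay at least 2 apart and the highest value was at least 1 TPM. Of the 27 tested members 1 had such a step, AABR07044362.4, against 1.55% of all 24540 tested genes. As that model was chosen for its values, nothing is read from this count, and without the unnamed models it is 0 of 25. With a step of at least 1 there were 6 of 27, against 5.37% of all: both unnamed models, RT1-CE10, RT1-N2, RT1-CE3 and RT1-Db1. Without the unnamed models that is 4 of 25. By single transcripts, 4 of the 41 member transcripts that passed the filter had a step of at least 2, against 11.8% of 50419 transcripts. Without the unnamed models it is 3 of 39, not above the background.

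Those 4 transcripts were AABR07044362.4 and 1 each of RT1-A1, RT1-A2 and RT1-CE3. The RT1-A1 transcript ENSRNOT00000041590 was at 6.49 TPM in morphine-sired 3 and listed at 0 in the other 11 libraries. The RT1-CE3 transcript ENSRNOT00000071840 was at 6.95 TPM in saline-sired 2 and listed at 0 in the other 11. Other transcripts of both genes were present in all 12 libraries. The full-length RT1-A2 transcript ENSRNOT00000052270 was listed at 0 in saline-sired 3, and in the other libraries was at 4.82, 16.6, 5.07, 9.95 and 14.7 TPM (saline-sired 1, 2, 4, 5 and 6) and at 4.07, 17.6, 8.71, 18.5, 28.6 and 13.4 TPM (morphine-sired 1 to 6). In saline-sired 3 the assembled MSTRG.14647.1, which shares 67.8% of its exonic bases, was at 22.7 TPM, above its level of at most 6.40 TPM elsewhere. RT1-A2 as a gene was present there at 18.8 TPM. The single-exon model of RT1-DMa, ENSRNOT00000080583, was at 2.41 to 6.14 TPM in 7 libraries and at 0.258 to 0.425 TPM in saline-sired 2 and 3 and morphine-sired 3, 4 and 5. The 5-exon transcript of RT1-DMa, ENSRNOT00000070886, was at 12.1 to 16.4 TPM in every library.

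Haplotype-like patterns were looked for among transcripts that split the libraries alike. Among all 92 tested transcripts of the members' loci, 11 had a step of at least 2, and no 2 of these 11 had the same libraries above the step. The RT1-A2 transcript ENSRNOT00000052270 and MSTRG.14504.8 of the RT1-N2 locus did set saline-sired 3 apart in opposite directions. The first was listed at 0 there, and the second was at 8.48 TPM there and at most 1.02 TPM elsewhere. Library pairs were on the same side for 5 to 10 of the 11. Rats with adjacent numbers were on the same side for a median of 9.5, and the other 60 pairs for a median of 8. At a step of at least 1, over the 128 transcripts between the first and the last member on chromosome 20, adjacent pairs were on the same side for a median of 68.4% and other pairs for 63.7%. Over all 15156 such transcripts of the genome the medians were 68.1% and 67.6%. Transcripts of a locus compete for the same reads, so these counts are not independent.

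Some splits were shared by features of several loci of the complex. At a step of at least 1, saline-sired 3 alone was set apart by MSTRG.14504.8, MSTRG.14502.16 and MSTRG.14647.1 and, in reverse, by ENSRNOT00000052270. The spans of MSTRG.14504.8 and MSTRG.14502.16 overlap on opposite strands, which cannot be told apart here. MSTRG.14647.1 shares 67.8% of the exonic bases of ENSRNOT00000052270, so these features are not independent. Saline-sired 6 and morphine-sired 3 were set apart by MSTRG.14502.21 and, in reverse, by MSTRG.14513.4. Morphine-sired 5 alone was set apart by MSTRG.14452.1 and ENSRNOT00000078972. The shares of all transcripts that made these splits were not counted, so nothing is read from them. Another split was made by features of 2 loci of the complex. Saline-sired 3 and morphine-sired 4, 5 and 6 are the rats numbered 372, 373, 383 and 384. They were set against the other 8 by 4 of the 15156 transcripts with a step of at least 1. Of these 4 transcripts 3 lie in the complex, as do 128 of the 15156. This split was named after its values were seen, so nothing is read from its counts. MSTRG.14502.1 was at 0 to 0.0566 TPM in those 4 libraries and at 1.22 to 3.97 TPM in the other 8. MSTRG.14502.19, of the same locus as AABR07044362.4 and so in competition for its reads, was the reverse, at 4.99 to 5.78 TPM in those 4 and at most 0.271 TPM in the others. The last is a transcript of LOC103690108 (chr20:3791407-3794027), which is not a member and lies between RT1-T24-1 and RT1-Db1. As a gene it was at 22.7, 39.4, 0, 34.4, 69.2 and 54.4 TPM in saline-sired 1 to 6, and at 31.0, 40.8, 40.5, 0, 0.757 and 1.5 TPM in morphine-sired 1 to 6. No other of the 1319 genes with a step of at least 1 split the libraries in this way. Each of the 6 pairs of adjacent numbers lies whole on 1 side of this split.

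A further split was that of RT1-Db1. It was at 0.314, 3.30, 3.84, 0.845, 0.450 and 3.02 TPM in saline-sired 1 to 6, and at 0.447, 7.20, 0.652, 4.74, 3.20 and 3.50 TPM in morphine-sired 1 to 6. Saline-sired 1, 4 and 5 and morphine-sired 1 and 3 were low and the other 7 were at 3.02 TPM or more. Its partner chain RT1-Da did not share this split. RT1-Da was at most 2.42 TPM in the 5 low libraries and ran from 0.843 to 5.66 TPM in the other 7. The ratio of RT1-Db1 to RT1-Da was 0.186 to 0.352 in the 5 low libraries and 0.567 to 4.15 in the other 7. The low libraries were defined by RT1-Db1 itself, so a low ratio there is partly built in and nothing is read from it. The ratio of 4.15 was that of morphine-sired 6, where RT1-Da was lowest. MSTRG.14452.6, an assembled transcript of the RT1-CE10 locus at chr20:130176-176545, was at 1.29 to 3.05 TPM in exactly those 5 libraries and listed at 0 in the other 7. Of the 15156 transcripts, 4 made this split, and the other 3 lie on chromosomes 3 and 14. RT1-Db1 was the only 1 of the 1319 genes to make it. Of the adjacent pairs, 297 and 298 were both low, 372 and 373 as well as 383 and 384 were both high, and the other 3 pairs were divided. This split and that of LOC103690108 were picked out after the values were seen.

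**Figure D4:**
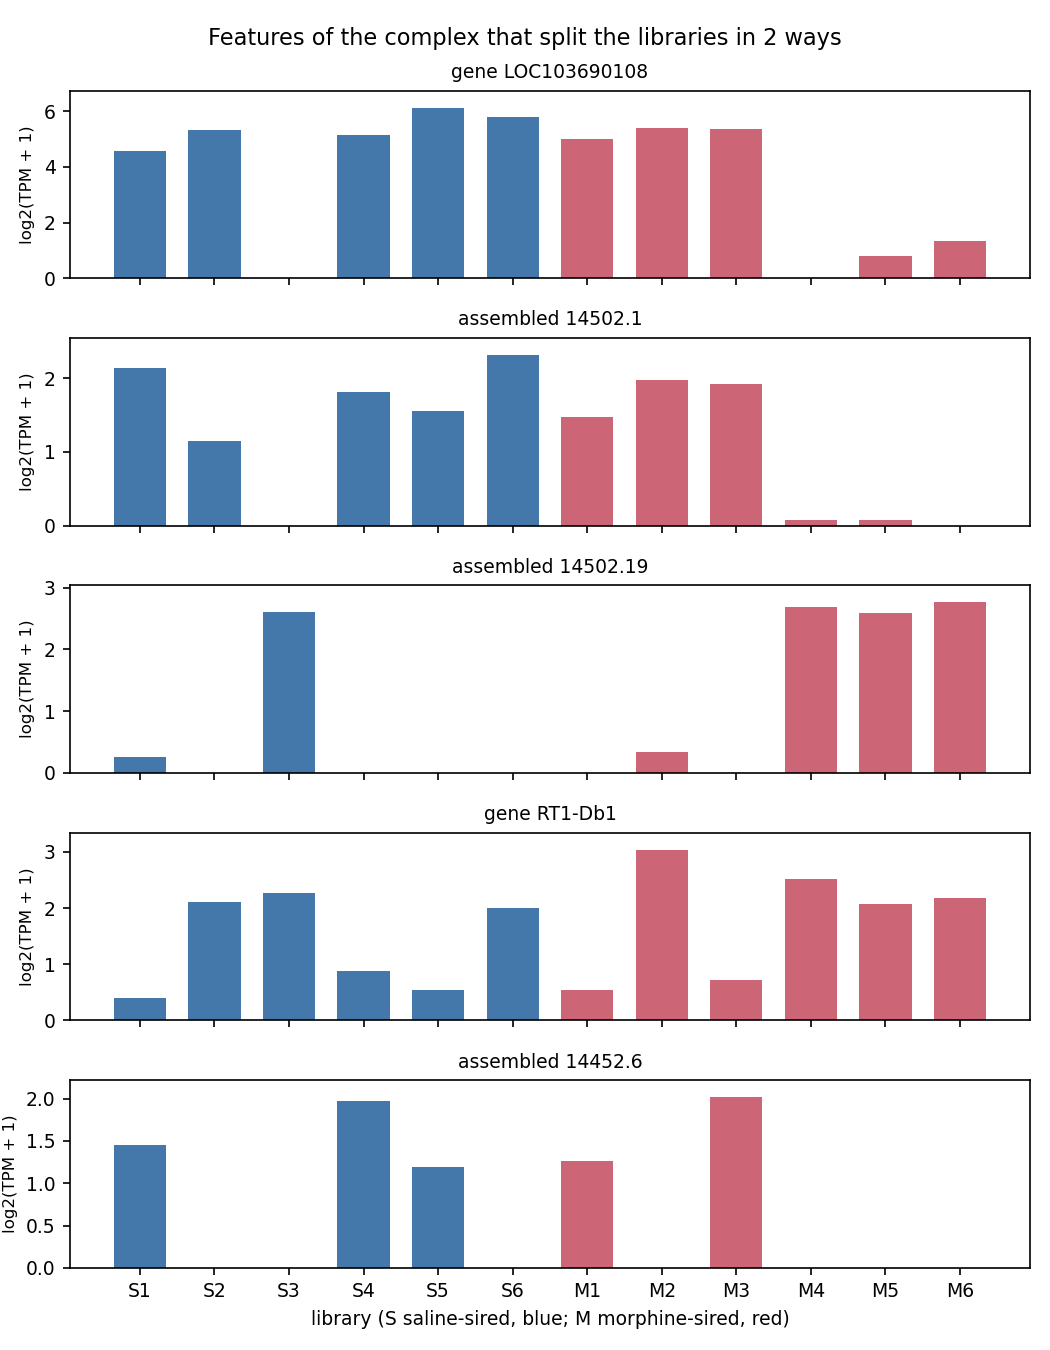
Bars of log2(TPM + 1) in the 12 libraries (saline-sired S, blue; morphine-sired M, red) for 5 features of the complex. The upper 3 panels set saline-sired 3 and morphine-sired 4, 5 and 6 apart, and the lower 2 panels set saline-sired 1, 4 and 5 and morphine-sired 1 and 3 apart; both kinds of library occur on each side.

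For the members with the widest steps, the genes most alike over the 12 libraries were spread over the genome. Among 16380 tested genes with a symbol, those nearest to AABR07044362.4 were NEWGENE_1562258 (chromosome 4, r = 0.90), Emb (chromosome 2, r = 0.88), Lipt2 (chromosome 1, r = 0.88), Ino80b (chromosome 4, r = 0.87) and RF00100 (chromosome 3, r = 0.86 over 12 libraries). Those nearest to AABR07044389.1 were Zfp36, Zfp330, Twist2, Slc16a12 and Sec24b, with r of 0.80 to 0.84. Among those nearest to RT1-CE10 were Lrrk1 (r = 0.92), Sars2 (r = 0.88), Fut10 (r = 0.88) and Gpr146 (r = 0.86). None of the genes named here lies on chromosome 20. They are the best of many, so their r carries no p. Of the 30 tested genes of the class III region and its flanks, 0 had a wide step.

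Sire was compared for the 25 tested members other than the unnamed models. Each rat was counted as independent, although the sires were treated and the labels name no sire or litter. The SE, intervals and p values by sire therefore assume that no rats share a sire or litter. None passed an adjusted p of 0.05 in limma, against 0% of all 24540 tested genes, and none had an unadjusted p under 0.05, against 3.22% of all. No tested member had groups that did not overlap, against 0.0896% of all. The mean was higher in morphine-sired libraries for 15 of the 25 and lower for 10, against 49.2% higher among all genes. The median log2 difference, morphine-sired minus saline-sired, was 0.09 over the 25 and -0.0022 over all genes.

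RT1-T24-1 had the smallest p of the 25, with 1.77 ± 0.37 TPM (SD, n = 6) in saline-sired and 2.43 ± 0.65 TPM (SD, n = 6) in morphine-sired libraries. Its difference was 0.30 (SE 0.15) on the log2(TPM + 1) scale, with an unadjusted p of 0.064 and an adjusted p of 0.9998 (limma), and 3 of the 6 morphine-sired libraries lay above all saline-sired ones. RT1-A2 was at 31.5 ± 17.1 and 52.3 ± 24.9 TPM (SD, n = 6 each), a difference of 0.69 (SE 0.39, 95% interval -0.15 to 1.54, limma adjusted p = 0.9998). RT1-T24-3 differed by 0.41 (SE 0.29, limma adjusted p = 0.9998), but by 0.24 without morphine-sired 5, by 0.22 without morphine-sired 6 and by -0.047 (SE 0.15) without both. RT1-CE3 differed by -0.48 (SE 0.32, limma adjusted p = 0.9998), but by -0.23 without morphine-sired 3 and by -0.30 without saline-sired 2. B2m differed by 0.09 (SE 0.08, 95% interval -0.08 to 0.26) and Cd74 by -0.11 (SE 0.38, 95% interval -0.95 to 0.72), each with a limma adjusted p of 0.9998. Ciita was below the filter and was not tested. Half-widths of the 95% intervals over the 25 members ran from 0.17 to 1.17 with a median of 0.56, so that a difference smaller than its half-width could not be told from 0. Of 39 member transcripts compared, 0 passed an adjusted p of 0.05, against 0.00198% of all transcripts, and 0 had an unadjusted p under 0.05, against 3.77% of all.

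**Figure D5:**
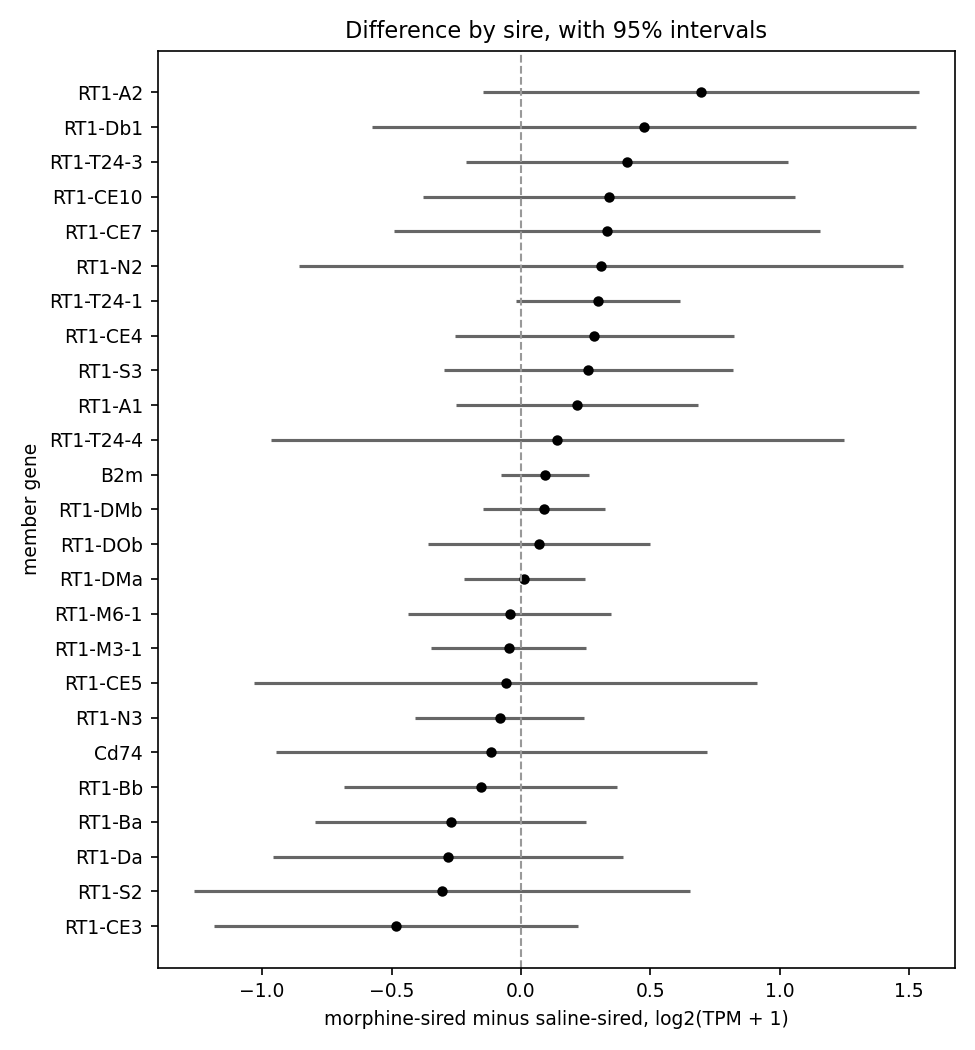
Difference in log2(TPM + 1), morphine-sired minus saline-sired, for the 25 tested members other than the unnamed models; points are estimates and lines the 95% intervals from limma. All 25 lines cross 0, from RT1-CE3 at -0.48 to RT1-A2 at 0.69.

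The genes that serve the complex gave no call by sire either. Of class I processing (transport, tapasin, immunoproteasome and chaperones), 0 of 14 passed, with 9 means higher and 5 lower in morphine-sired libraries and a median log2 difference of 0.06. Psmb9 was at 4.98 ± 0.65 and 6.88 ± 1.62 TPM (SD, n = 6 each; limma difference 0.38, SE 0.13, adjusted p = 0.9998), and Tapbpl at 8.75 ± 1.36 and 10.6 ± 1.71 TPM. Of class II processing 0 of 9 passed, with 5 higher and 4 lower means. Of interferon signalling 0 of 13 passed, with 6 higher and 7 lower means and a median of -0.03. Of the class III and flanking genes 0 of 30 passed, with 18 higher and 12 lower means and a median of 0.02. C4b, a complement gene of the class III region, was at 1.39 ± 0.57 and 2.75 ± 1.05 TPM (SD, n = 6 each; limma difference 0.64, SE 0.21, adjusted p = 0.9998). Among microglia markers 9 of 11 means were higher in morphine-sired libraries and 0 passed, and among choroid plexus markers 6 of 6 were higher and 0 passed. The part of those cells in the levels of the members was not tested.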

How the data were processed

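Each of the 12 files deposited by the authors gives coverage, FPKM and TPM per transcript. The only other values are the log2 values of 41063 annotated transcripts in the authors' deposited whole-series table, which equal log2(FPKM + 1) to within 4.93e-08 and supplied the symbols. Per the file headers, StringTie 1.3.6 estimated levels against an annotation merged over the series. Per the submitters' processing notes, reads were handled with HISAT2 2.2.0, StringTie 2.1.2, SAMtools 1.11, Trimmomatic 0.39, DESeq2 1.28.1 and FastQC 0.11.9 on build Rnor_6.0. Read pairing and strandedness: not given in the sources used here. Antisense neighbours therefore cannot be told apart. In this mode StringTie divides reads between overlapping models.

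TPM was summed over the transcripts of a locus with the same symbol; an assembled transcript was added to a gene only in loci with 1 symbol. In 7 of the 29 member loci several symbols are present, which touches 14 members. Genes and transcripts with a mean of at least 0.5 TPM were compared with limma 3.58.1 in R 4.3.3 (trend, two-sided, Benjamini-Hochberg over all tested) on log2(TPM + 1), which understates low genes. Replicates are separate rats by animal number. The treatment was given to the sires, and the labels name no sire or litter. The fits therefore count each rat as independent, and a shared sire or litter could not be allowed for. On simulated data (24540 genes, 200 changed) the gene test recovered 42% at 1.5-fold, 77.5% at 2-fold and 94.5% at 4-fold, folds of TPM + 1. The changed genes were drawn at random from all tested genes, so these shares are not those of the members. The members' 95% half-widths had a median of 0.56 and reached 1.17. Correlations used 100000 permutations. Tables were handled in Python 3.11.15 (pandas 2.3.3, scipy 1.17.1, numpy 2.4.6) and drawn with matplotlib 3.10.9.

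Members, lists and rules were chosen with earlier results of these data known. Values in every library are given for B2m, Cd74, Ciita and the 2 unnamed models, members with a wide step and the 8 RT1- members of highest mean; estimates by sire are given for B2m, Cd74 and the 4 RT1- members of smallest p. RT1-Da, RT1-N2, RT1-Db1, RT1-DMb, RT1-S2 and the transcripts and LOC103690108 of the splits were named after their values were seen. Alternatives were the pseudocount, the filter, annotated transcripts only, sums over the locus, quantile normalization, the whole-series table, other steps and leaving out libraries. The list of genes most alike to a member is not reported here in full.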

Additional observations from a re-analysis of the deposited data

Results flagged for a closer look

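Within groups of 6 libraries, the highest or lowest value of 5 member genes lay farther from its nearest neighbour than a Dixon test allows (the gap to the next value over the range of the group); 54 groups were looked at, and chance picks out about 1 in 20 groups. RT1-A1 was at 12.3 TPM in morphine-sired 3, with 7.81 TPM next. RT1-CE10 was at 1.27 TPM in saline-sired 3, with 7.39 TPM next. RT1-CE3 was at 7.58 TPM in saline-sired 2, with 4.10 TPM next. RT1-S2, a nonclassical class I gene, was at 4.47 TPM in morphine-sired 5, with 0.748 TPM next in that group. In the other group saline-sired 1 and 3 were at 3.53 and 3.86 TPM, near this value. The RT1-S2 transcript ENSRNOT00000042882 shares 88.5% of its exonic bases with each of 2 other models. The sum of all these models was at 5.27, 5.81 and 5.54 TPM in morphine-sired 4, 5 and 6, so morphine-sired 5 did not stand apart there. RT1-Da was at 5.66 TPM in morphine-sired 2, with 2.29 TPM next; that library also had the highest summed choroid plexus markers, at 1802 TPM, and the highest summed erythroid markers, at 2109 TPM, and their part in the value was not tested.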

How the results depend on the processing

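No member was called by sire under any alternative run. For genes and transcripts alike the count was 0 with a pseudocount of 0.1, with no filter, without each library in turn, without saline-sired 2 and morphine-sired 2, and without morphine-sired 5 and 6, the last 2 settings chosen after seeing the data. For genes it was also 0 with annotated transcripts only, summed over the locus and after quantile normalization, and for transcripts in the whole-series table. Counted with the 2 unnamed models, 1 to 3 members had an unadjusted limma p under 0.05 in these settings. In the main setting 3.22% of all genes and 3.77% of all transcripts did, and the shares in the other settings are not given. The lowest unadjusted limma p was 0.017 for RT1-A2 (without morphine-sired 1) and 0.018 for RT1-T24-1 (without morphine-sired 2). For RT1-CE3 it was 0.041 (without morphine-sired 5 and 6). Wide steps depend on the rule. Member genes with such a step numbered 6 of 27 at a step of at least 1 (5.37% of all genes) and 0 at a step of at least 3 (0.656%). They numbered 7 with a pseudocount of 0.1 (7.43%) and 0 of 22 loci summed over the whole locus (1.08%), against 1 in the main setting (1.55%). Member transcripts numbered 9 of 41 at a step of at least 1 (30.1% of all transcripts) and 0 at a step of at least 3 (5.33%). They numbered 14 of 41 with a pseudocount of 0.1 (31%) and 2 of 23 at a mean of at least 2 TPM (12.7%), against 4 of 41 in the main setting (11.8%). All these counts are made with the 2 unnamed models, which were chosen for their values, so nothing is read from them. The most transcripts with the same libraries above the step numbered 3 at a step of at least 1 and 3 with a pseudocount of 0.1, against 1. Splits in opposite directions were counted apart. The 3 at a step of at least 1 were MSTRG.14504.8, MSTRG.14502.16 and MSTRG.14647.1, each with saline-sired 3 alone above. By sire, RT1-CE3 reversed to 0.20 over its whole locus and RT1-T24-3 to -0.047 without morphine-sired 5 and 6. Cd74 reversed to 0.0055 without saline-sired 2, 0.020 without saline-sired 6, 0.021 without morphine-sired 1, 0.093 without morphine-sired 6 and 0.12 without morphine-sired 5 and 6. The cause was not tested. Without single libraries Cd74 ranged from -0.34 (without morphine-sired 2) to 0.093. Over 19 alternatives B2m ranged from 0.03 to 0.14, RT1-A2 from 0.33 to 0.95 and RT1-T24-1 from 0.16 to 0.42, without a change of sign. The widest step of AABR07044362.4 was 2.58, 0.31 over the models that share its exons and 0.21 over its locus; that of AABR07044389.1 was 1.88, 0.14 and 0.19. No paired analysis was possible because the labels carry no replicate numbers. Depth limits low members most: 1 TPM is a read depth of 1.86 to 2.64 per base.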
